A study of Mus musculus with 8 samples.

Results

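The Pax6 and Elp4 locus was followed through 4 lists of open chromatin peaks from the mouse lens. Its members are 2 neighbouring genes of the 21000 protein-coding genes placed on the genome, and they were chosen for what RefSeq and earlier work say of them, namely that introns of Elp4 hold remote enhancers of Pax6. The locus was taken as both gene bodies with 50 kb on each side, chr2:105618896-105954564 of GRCm38 (the same coordinates as mm10), a stretch of 335669 bp. Every peak that overlapped it was kept, which gave 190 of the 345333 peaks in all lists. In embryos at E14.5 these were 67 of 100003 peaks of the lens epithelium and 58 of 123743 of the lens fibers. In newborns at P0.5 they were 42 of 58592 in epithelium and 23 of 62995 in fibers. These groups are called embryonic and newborn epithelium and fibers here.

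The lenses came from CD1 mice, an outbred strain, with no transgene, mutation or treatment in any group. Each lens was microdissected into its epithelium, the sheet of dividing cells at the front, and its fiber cells, which elongate from that sheet and make up the bulk of the lens. This was done in embryos at E14.5 and in newborns at P0.5, and each group had 2 libraries, each made from several lenses pooled. ATAC-seq inserts sequencing adapters where DNA is not wrapped in nucleosomes, and peaks mark such places. The deposited lists are named as pooled over both libraries, so there is 1 list per group, no spread between replicates and no test between groups. The fold enrichment of a peak over its local background was therefore used only as a rank in its own list. A rank of 1% means that 1% of the peaks of that list were at least as strong, ties sharing the best rank.

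Pax6 encodes a transcription factor with a paired domain and a homeodomain that is required for the eye to form. In the lens it acts in the surface ectoderm and stays abundant in the epithelium, while its level falls as fibers mature. Elp4 encodes a subunit of the Elongator complex, which modifies transfer RNAs in all cells. Enhancers of Pax6 lie upstream of the gene, in its own introns and far downstream, where the distal ones sit inside introns of Elp4 and act across that gene. The best known lens enhancers are the ectoderm enhancer upstream of Pax6 and SIMO in Elp4.

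Pax6 spans chr2:105668896-105698410 on the plus strand and Elp4 spans chr2:105697320-105904564 on the minus strand. Their 3′ ends overlap by 1091 bp, so no space lies between them. RefSeq lists 4 curated start sites of Pax6. The first, called P0, is the zero point of every distance given here, with positive distances towards Elp4. Elp4 shares a divergent promoter with Immp1l, a mitochondrial inner membrane protease subunit, whose start site is 74 bp away. The long noncoding RNA genes Pax6os1 and Paupar lie on the minus strand over the upstream flank of Pax6. ATAC-seq reads carry no strand, so a peak over 2 genes cannot be given to one of them.

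The sequences that carry most of what follows were read from the plus strand of the RefSeq GRCm38 genome, 5′ to 3′. The minimal fragment of the ectoderm enhancer, chr2:105665100-105665203, and the conserved core of SIMO, chr2:105779429-105779721, are shown because RefSeq records binding sites in them, which are in capitals (Pax6, Six3, Sox2 with Oct1, Meis1 and Meis2, and Prep1 in the first, Pax6 and then Six3 in the second).
Ectoderm enhancer: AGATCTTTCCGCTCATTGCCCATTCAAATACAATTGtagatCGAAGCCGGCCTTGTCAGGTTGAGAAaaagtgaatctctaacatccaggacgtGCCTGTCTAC
SIMO core: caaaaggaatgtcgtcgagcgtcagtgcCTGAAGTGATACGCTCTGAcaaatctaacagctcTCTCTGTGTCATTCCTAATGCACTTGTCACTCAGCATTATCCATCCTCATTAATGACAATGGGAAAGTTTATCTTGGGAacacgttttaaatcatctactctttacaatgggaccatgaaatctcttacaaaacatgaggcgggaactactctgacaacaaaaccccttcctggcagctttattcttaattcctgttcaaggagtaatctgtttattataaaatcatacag
The 150 bases around the leading peak of Pax6 intron 7, chr2:105687678-105687827, hold the strongest summits of that gene away from its promoters in the 3 lists that called it. The stretches in intron 9 and intron 8 of Elp4, chr2:105789697-105789846 and chr2:105792862-105793011, were peaks with no RefSeq enhancer, hypersensitive site or binding site. In these 3 the capitals run from the first to the last summit of the lists that called the site.
Pax6 intron 7: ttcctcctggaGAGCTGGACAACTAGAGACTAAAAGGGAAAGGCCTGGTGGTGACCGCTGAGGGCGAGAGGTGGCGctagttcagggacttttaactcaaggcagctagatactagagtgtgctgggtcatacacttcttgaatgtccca
Elp4 intron 9: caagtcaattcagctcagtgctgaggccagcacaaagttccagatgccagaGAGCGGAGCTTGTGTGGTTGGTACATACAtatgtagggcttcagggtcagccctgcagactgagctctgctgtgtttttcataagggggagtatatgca
Elp4 intron 8: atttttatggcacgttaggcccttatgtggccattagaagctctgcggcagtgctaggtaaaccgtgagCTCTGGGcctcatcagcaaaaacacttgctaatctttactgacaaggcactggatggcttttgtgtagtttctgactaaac

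The lists differ in the share of weak peaks, which bears on every absence below. At a q value under 0.001 the lists kept 87.9% of their peaks in embryonic epithelium, 80.5% in embryonic fibers and 86.7% in newborn epithelium, but 48.9% in newborn fibers. A site that has no peak in newborn fibers is therefore written as not called, not as closed, and ranks in that list are set against many weak peaks. The tissue labels were checked on marker genes. All 7 lens fiber genes searched (crystallins, Mip, Lim2 and the Bfsp genes) had a peak in the top 10% of the embryonic fiber list and 4 did in newborn fibers, against 3 in embryonic epithelium and 0 in newborn epithelium. The best peak of each of the 4 epithelial genes ranked stronger in epithelium than in fibers at both stages, as for Cdh1, encoding E-cadherin (9.01% against 19.5% in embryos and 14.6% against 34.7% in newborns). Coverage of their bodies was less even: it was lower in newborn fibers than in newborn epithelium for all 4, whereas Foxe3, the epithelial forkhead factor, was covered over 67.0% in embryonic epithelium and 79.6% in embryonic fibers. Among 5 retinal genes, Atoh7 was covered over 29.4% to 72.1% of its body in the 4 lists, and the median of the list was 1.43% to 9.66%. The part of other eye tissue in the peaks of Pax6 was not tested.

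Peaks were dense over this locus in all 4 lists. There were 19.96 peaks per 100 kb in embryonic epithelium, 17.3 in embryonic fibers, 12.5 in newborn epithelium and 6.85 in newborn fibers, and the same density over the genome was 3.67, 4.54, 2.15 and 2.31. Peaks covered 8.59% of the locus in embryonic epithelium, 12.6% in embryonic fibers, 4.23% in newborn epithelium and 2.18% in newborn fibers. Among all protein-coding genes taken with the same flanks, 88.8%, 87.8%, 88.5% and 68.2% were covered less, in that order. The locus thus stood high in 3 lists and nearer the middle in newborn fibers.

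**Figure D1:**
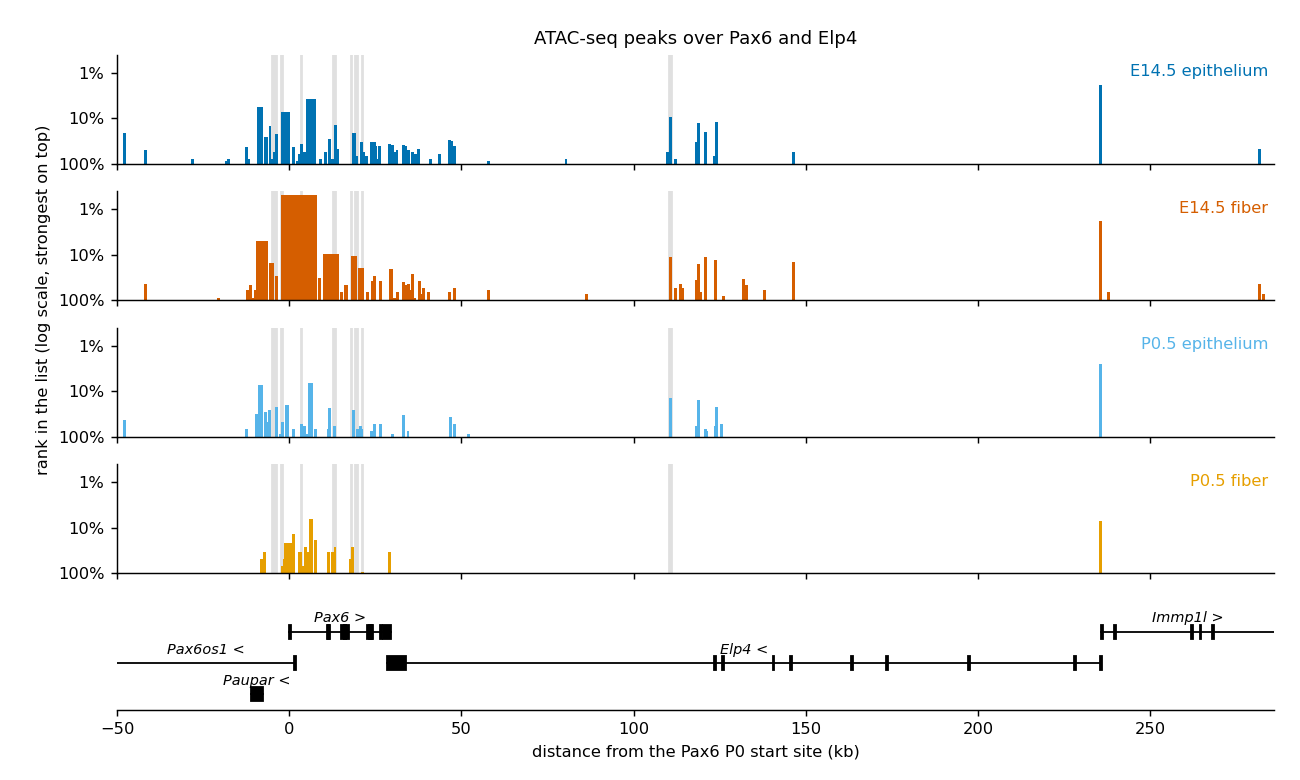
Peaks of the 4 lists over the locus, by distance from the P0 start site of Pax6 in kb; the height of a bar is the rank of the peak in its list on a log scale, grey bands are RefSeq enhancers, and arrows beside gene names give the direction of transcription. Narrow peaks are drawn wider than to scale so that they show, and the newborn fiber track has no peak between the 3′ end of Pax6 and the Elp4 promoter.

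The peaks were not spread evenly. The 4 Pax6 promoters, taken as 2 kb on each side of the start sites and 12.4 kb together, were covered over 65.4% of their bases in embryonic epithelium, 90.6% in embryonic fibers, 36.3% in newborn epithelium and 37.3% in newborn fibers. The remaining 19.1 kb of the Pax6 body were covered over 33.4%, 64.3%, 10.7% and 7.57%. In the 48.0 kb upstream the values were 12.8%, 15.1%, 7.61% and 1.21%. The Elp4 body, 204 kb without its promoter and without the overlap with Pax6, which was counted with that gene, held 27 summits in embryonic epithelium, 33 in embryonic fibers and 14 in newborn epithelium, on 3.46%, 4.89% and 1.54% of its bases, and 0 summits in newborn fibers. In the overlap newborn fibers had 1 summit, at 105697946. Beyond Elp4, within Immp1l, there were 1, 3, 0 and 0 summits.

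**Figure D2:**
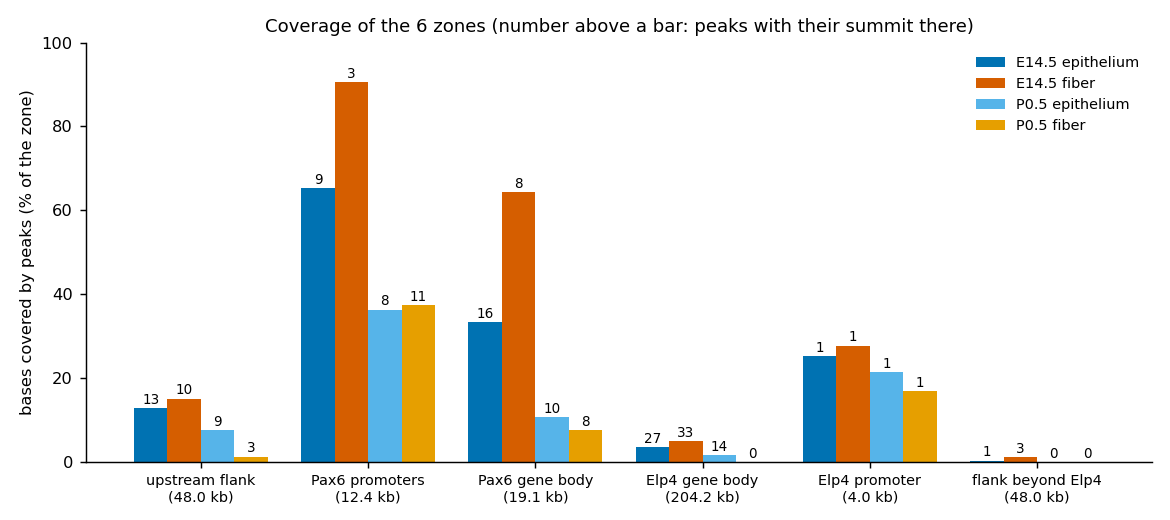
Percent of the bases of each of 6 zones that peaks covered in each list, with the number of peaks whose summit lay in the zone above each bar. Fibers stood above epithelium in every zone at E14.5, whereas at P0.5 they stood about level at the Pax6 promoters and below in the other zones where either list had a peak.

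The strongest peak of Pax6 in every list was at the P1 promoter, 6.46 kb downstream of P0 and inside intron 1 of the transcript that starts there. Its rank was 3.73% in embryonic epithelium, 0.479% in embryonic fibers, 6.64% in newborn epithelium and 6.31% in newborn fibers. Embryonic fibers ranked strongest. When the lists were limited to q values under 0.001 these ranks became 4.24%, 0.595%, 7.66% and 12.9%, and newborn fibers then stood behind newborn epithelium. Its summits in the 4 lists lay within 5 bp of each other. Of the 20149 merged regions called in all 4 lists, 2.68% had their best summits within 5 bp, and their median range was 108 bp.

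The width of that peak differed more than its summit. It was 2998 bp wide in embryonic epithelium, 10551 bp in embryonic fibers, 1483 bp in newborn epithelium and 1128 bp in newborn fibers. The embryonic fiber peak ran from 105666418 to 105676968, over P0, P1 and the retina and pancreas enhancers upstream of P0, and only 9 of the 123743 peaks of that list were as wide, itself included. In embryonic epithelium 0.146% of the peaks were as wide as the P1 peak, and in newborn fibers 2.53% were. In newborn epithelium the widest peak of the locus was another one, 1527 bp over Paupar.

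P0 itself had a separate peak in 3 lists. Its rank was 7.35% in embryonic epithelium, 19.6% in newborn epithelium and 21.4% in newborn fibers, with summits at 105668849, 105668785 and 105668571. The newborn fiber peak stood at 43.8% of the peaks of its list with a q value under 0.001. In embryonic fibers P0 lay inside the wide P1 peak and had no summit of its own. P0 was therefore weaker than P1 in each list that separated them. At the hypersensitive site HS21.4, 1.19 kb downstream of P0, newborn fibers ranked 14.0%, newborn epithelium 66.3% and embryonic epithelium 43.5%. With q values under 0.001 the newborn ranks there were 28.6% in fibers and 76.5% in epithelium. In embryonic fibers this site also lay inside the wide P1 peak. The Ctcf-bound enhancer-blocking element just upstream of P0, a stretch that can keep enhancers from acting on a promoter, was covered over 100% of its bases in both embryonic lists, 57.5% in newborn epithelium and 68.1% in newborn fibers.

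A further promoter, P alpha, and a retinal enhancer lie together in intron 3 of the P0 transcript. The peak over them ranked 13.8% in embryonic epithelium, 9.45% in embryonic fibers, 58.5% in newborn epithelium and 26.4% in newborn fibers. With q values under 0.001 the newborn ranks lay closer together, at 67.4% in newborn epithelium and 54.0% in newborn fibers. Both RefSeq Pax6 binding sites of this enhancer were overlapped in all 4 lists.

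Upstream of Pax6 the leading site lay 8.66 kb before P0, within Paupar, a noncoding RNA gene expressed in the nervous system. It ranked 5.53% in embryonic epithelium, 4.93% in embryonic fibers and 7.24% in newborn epithelium, with summits at 105660219, 105660227 and 105660234, and no newborn fiber summit lay within 300 bp of these. A narrow newborn fiber peak of rank 48.9% lay inside all 3 peaks, with its summit at 105660720. A site at 5.63 kb before P0 ranked 14.8%, 15.3% and 26.3% in those lists and was not called in newborn fibers either. The upstream flank of newborn fibers held 3 summits, the best at rank 34.7%, 6.96 kb before P0.

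The ectoderm enhancer, known to drive Pax6 in the lens and the corneal epithelium, was called in 3 lists. Its rank was 21.7% in embryonic epithelium, 29.6% in embryonic fibers and 22.5% in newborn epithelium. It stood below P1 and SIMO in each of these lists. Summits lay at base 55 of the sequence above in embryonic epithelium and at base 85 in embryonic fibers and newborn epithelium. The peaks of these lists covered all 104 bases and overlapped the 6 binding sites that RefSeq lists there. In newborn fibers no peak overlapped the enhancer.

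**Figure D3:**
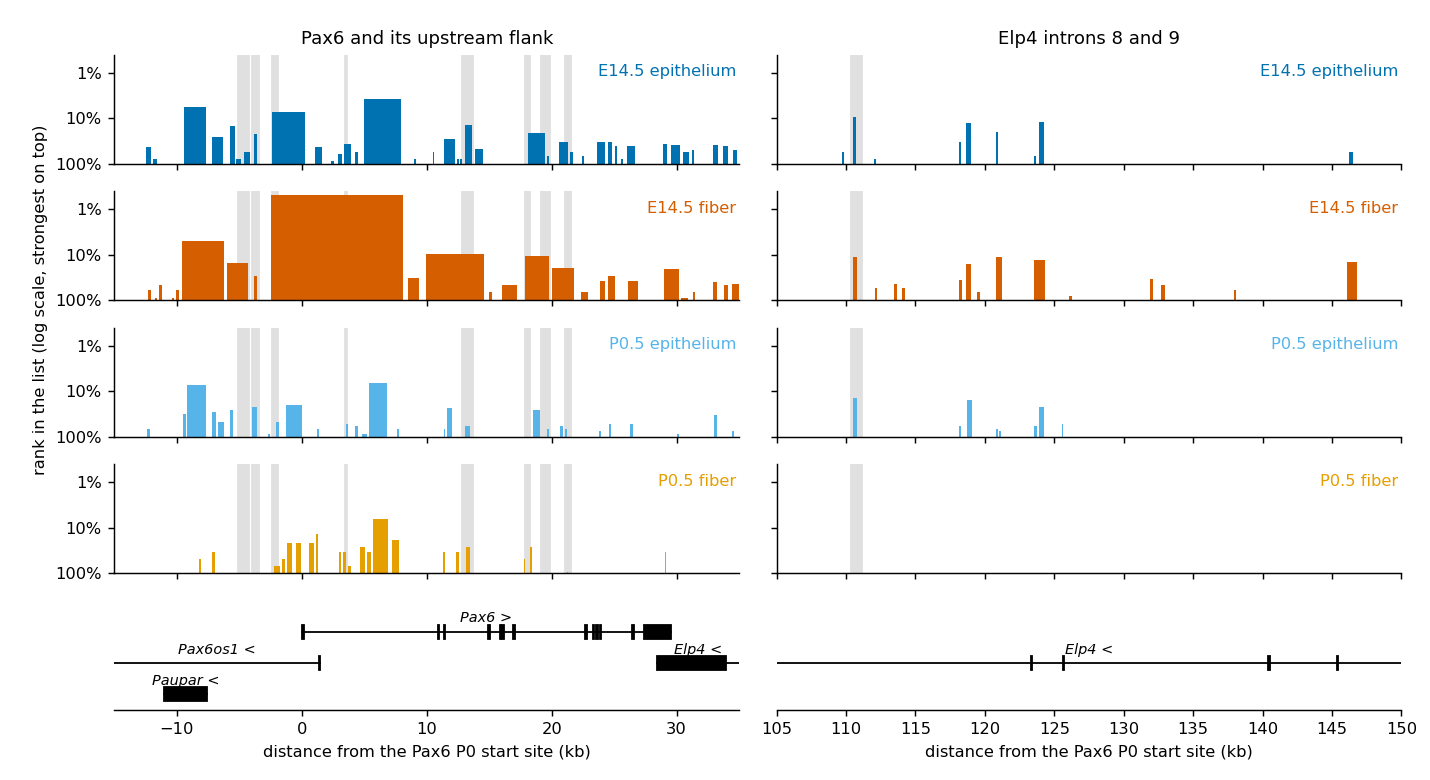
The same peaks drawn larger, over Pax6 with its upstream flank (left) and over introns 8 and 9 of Elp4 (right), with rank on a log scale and RefSeq enhancers in grey. Embryonic fibers show 1 peak of 10551 bp where the other lists show several, and the right panel holds peaks of 3 lists and none of newborn fibers.

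Introns of Pax6 held further peaks. The leading one after the promoters lay 18.9 kb downstream of P0 in intron 7, and ranked 20.9% in embryonic epithelium, 10.8% in embryonic fibers and 26.3% in newborn epithelium. Its summits, at 105687726, 105687753 and 105687689, fell between the RefSeq enhancers CE1 and CE2, in neither of them. Newborn fibers had a summit 18.3 kb downstream instead, at 105687205 and rank 26.4%, within the hypersensitive site of CE1 and outside the enhancer. CE3, which lies 21.0 kb downstream, was overlapped in all 4 lists, by peaks of rank 33.9%, 19.5%, 66.3% and 91.3%. At each of these intron sites embryonic fibers had the strongest rank.

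Elp4 introns held 4 sites that ranked within 25% in both embryonic lists. SIMO, which drives Pax6 in lens, retina and brain, lies in intron 9, the last intron, 111 kb downstream of P0. It ranked 9.30% in embryonic epithelium, 11.2% in embryonic fibers and 13.9% in newborn epithelium. Its summits lay at bases 70, 65 and 30 of the core shown above, the first 2 in the Six3 region and the last in the Pax6 site. SIMO was the strongest peak of the Elp4 body in both epithelial lists and tied with the next intron 9 site in embryonic fibers. It had a stronger rank than the ectoderm enhancer in every list that called both.

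The other 3 sites lay 119, 121 and 124 kb downstream of P0. The first, at the hypersensitive site HS3, ranked 13%, 15.9% and 15.8% in embryonic epithelium, embryonic fibers and newborn epithelium. The second, shown above as Elp4 intron 9, ranked 19.5% in embryonic epithelium, 11.2% in embryonic fibers and 66.3% in newborn epithelium. It was strongest in embryonic fibers and among the weaker peaks in newborn epithelium. The site shown as Elp4 intron 8 ranked 11.9%, 12.9% and 22.5%, and its summits lay within 6 bp of each other. RefSeq records no enhancer or hypersensitive site at the sites of the shown intron 9 and intron 8 stretches, only a region of 21401 bp that spans both, and the latter was picked for description after its values were seen. Another site, in intron 5 of Elp4 and 146 kb downstream, ranked 14.1% in embryonic fibers and 55.5% in embryonic epithelium.

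No Elp4 intron had a peak in newborn fibers, a list with many weak peaks. Over the genome, 37.9% of embryonic fiber peaks away from promoters and ranked within 25% were overlapped by a newborn fiber peak. Of 6 such peaks in the Elp4 body 1 was, the one at the 3′ end of Pax6, with a 95% Wilson interval of 3.01% to 56.4% that covers the genome share. Of the 3 newborn epithelium peaks of that rank in the Elp4 body 0 were overlapped in newborn fibers (interval 0 to 56.1%), against 52.0% over the genome. These intervals cover counting error only. The shares in the other directions were high at both levels: 4 of 4 embryonic epithelium peaks recurred in newborn epithelium (85.5% over the genome) and 4 of 4 in embryonic fibers (96.0%). Whether these sites were closed in newborn fibers or missed in that list was not tested.

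The Elp4 promoter, shared with Immp1l, ranked 1.89% in embryonic epithelium, 1.77% in embryonic fibers, 2.54% in newborn epithelium and 6.94% in newborn fibers. It was 677 to 1109 bp wide, where the median peak of a list was 185 to 298 bp, and stood above P1 in both epithelial lists and below it in both fiber lists. The 73 bases between both start sites, chr2:105904565-105904637, are shown with the start of Elp4 to the left and that of Immp1l to the right.
Elp4 to Immp1l: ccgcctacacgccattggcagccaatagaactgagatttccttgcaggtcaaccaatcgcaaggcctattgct
They hold CCAAT, the box read by the factor NF-Y, 3 times on either strand, at bases 14, 22 and 53. Of 32851 RefSeq promoters, 13.8% held it at least once in the same 73 bases before the start and 0.131% held it 3 times or more. CCAAT was not among the 10 motifs set for the search, and the threshold of 3 was the count found in this stretch. The share is therefore no test of enrichment. A match of letters is a description and not a bound site.

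**Figure D4:**
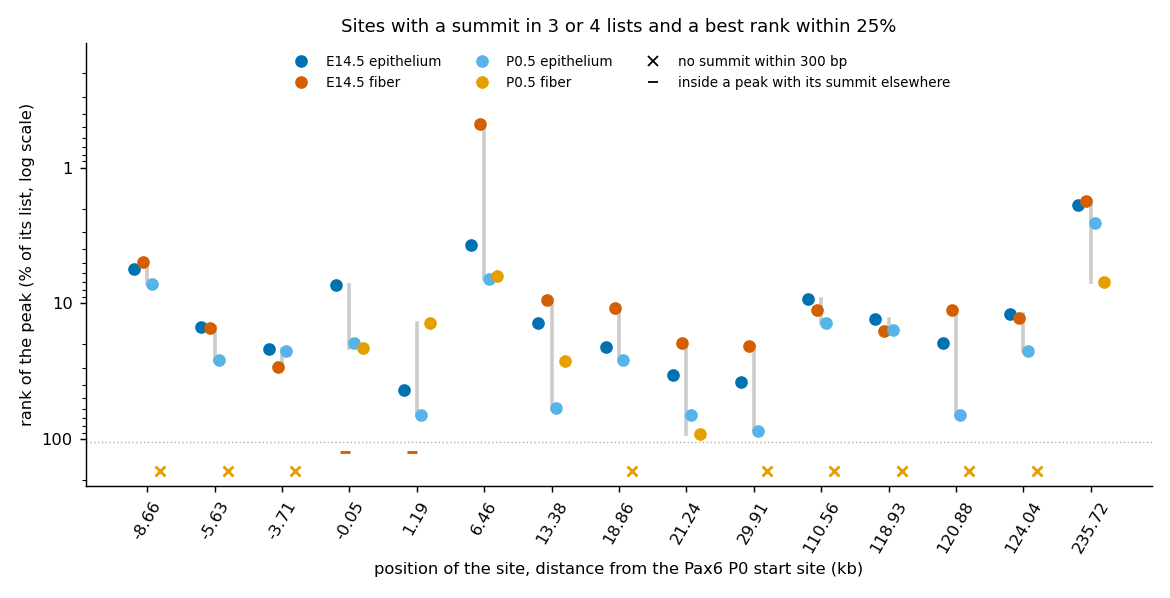
Rank of the peak, as a percent of its list on a log scale with the strongest on top, at each place where summits of 3 or 4 lists lay within 300 bp and the best rank was within 25%; crosses mark lists with no summit within 300 bp, some of which had a peak elsewhere under the peaks of the other lists, and dashes lists in which the place lay inside a peak with its summit elsewhere. Most newborn fiber crosses are upstream of P0 and in Elp4, while its points at P0, P1 and the Elp4 promoter are present.

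When peaks of all lists within 10 bp were joined, the locus held 71 of the 185368 merged regions. Of these, 7 were called in all 4 lists, 9.86% (95% Wilson interval 4.86% to 19.0%), against 10.9% over the genome. They were the Paupar region, the P0 to P1 region, the P alpha region, 2 regions of intron 7, the 3′ end of Pax6 and the Elp4 promoter. The largest classes were regions of embryonic fibers alone (22) and of all lists but newborn fibers (15). The first was 31.0% of the locus regions and 29.3% of all regions, and the second 21.1% and 8.41%.

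Between the tissues at E14.5 the locus was near the background. Of 68 regions called in either, 10 were called in epithelium alone, 14.7% (8.19% to 25%) against 19.7% over the genome, and 22 in fibers alone, 32.4% (22.4% to 44.2%) against 40.1%. Both intervals include the genome share, and with the strongest 58592 peaks of each list the counts were 6 and 5 of 33, 18.2% against 20.7% and 15.2% against 24.8%. In region calls at P0.5 the locus leaned to epithelium. Of 26 regions 19 were called in epithelium alone, 73.1% (53.9% to 86.3%) against 35.2%, and 0 in fibers alone (0 to 12.9%) against 39.6%. At a q value under 0.001 these were 18 of 24, 75% (55.1% to 88.0%) against 51.04%, and 1 of 24, 4.17% (0.739% to 20.2%) against 18.4%, so the second interval then held the genome share. Wide embryonic fiber peaks join separate newborn peaks in this count. With only the newborn lists merged, a choice made after the data were seen, 29 of 49 regions were called in epithelium alone, 59.2% against 36.7% over the genome, and 8 in fibers alone, 16.3% against 40.2%. Of the 23 summits of newborn fibers, 22 lay in an embryonic fiber peak, 20 in an embryonic epithelium peak and 9 in a newborn epithelium peak, which is 95.7%, 87.0% and 39.1% against 53.3%, 45.0% and 33.6% of all summits of that list. The 1 embryonic fiber peak of 10551 bp held 13 of the 23 newborn fiber peaks, so most of the first count rests on 1 wide peak.

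Between the stages, epithelium was near the background. Of 49 regions, 23 were called at E14.5 alone, 46.9% (33.7% to 60.6%) against 49.7%, and 3 at P0.5 alone, 6.12% (2.1% to 16.5%) against 11.2%. In fibers 51 of 58 were called at E14.5 alone, 87.9% (77.1% to 94.0%) against 62.5%, and 0 at P0.5 alone (0 to 6.21%) against 17.6%. Neither fiber interval holds the genome share. The lists compared differ in size, and with the strongest 58592 peaks of each these counts were 21 of 27 in fibers, 77.8% (59.2% to 89.4%) against 40.4%, and 5 of 31 in epithelium, 16.1% (7.09% to 32.6%) against 27.0%. At a q value under 0.001 fibers at E14.5 alone were 44 of 50, 88% (76.2% to 94.4%) against 74.3%. At that cutoff the upper bound for fibers at P0.5 alone, 7.13%, was above the genome share of 6.70%. In bases, 98.5% of what newborn fibers covered in the locus was also covered in embryonic fibers, and 17.0% of what embryonic fibers covered was covered in newborn fibers. Over the genome these shares were 71.0% and 21.4%.

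RefSeq lists 15 enhancers in this locus, several of them nested fragments of 1 element. All 15 were overlapped in both embryonic lists, 12 in newborn epithelium and 8 in newborn fibers. Over the 1015 RefSeq enhancers of the genome, 45.2% were overlapped in embryonic epithelium, 45.4% in embryonic fibers, 32.3% in newborn epithelium and 20.5% in newborn fibers. With peaks of a q value under 0.001, an alternative added after the data were seen, newborn fibers overlapped 3 of the 15, 20% against 12.9% of those of the genome, and the counts in the other lists stayed at 15, 15 and 12. Joined into 9 separate stretches, 9, 9, 7 and 4 were overlapped. In newborn fibers the photoreceptor enhancer of intron 1 and the retinal enhancer beside P alpha had a peak at both q values, the stretch upstream of P0 and CE3 had weak peaks only (ranks 69.2% and 91.3%), and there was no peak on the separate pancreas fragment farther upstream, the ectoderm enhancer, CE1, CE2 or SIMO. The stretches without a peak include every enhancer that RefSeq names as active in lens. Many of these elements were first found by work on Pax6 in the eye, so they are not a sample of enhancers in general.

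Some recorded sites had no peak. Of 21 DNase I hypersensitive sites that RefSeq records in the locus, 15, 16, 15 and 8 were overlapped in the 4 lists. That is 71.4%, 76.2%, 71.4% and 38.1%, against 28.8%, 30.5%, 25.4% and 21.2% of the 118 recorded over the genome. Of the 10 noted in lens cells that RefSeq calls MV+, 7, 8, 7 and 2 were. In Elp4, HS2 was called in 3 lists (33.9%, 36.0% and 58.5%) and HS1 in embryonic fibers alone (53.3%). HS6, HS7 and HS8, and the RB region farther into Elp4, whose human counterpart acts as an enhancer, had no peak in any list. Of the 15 recorded protein binding sites, 14, 13, 12 and 4 were overlapped, against 17.3%, 19.9%, 11.2% and 8.9% of the 562 over the genome.

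Against other genes, Pax6 was among the most widely covered. Peaks covered 42.3% of its body in embryonic epithelium, 72.9% in embryonic fibers, 17.2% in newborn epithelium and 16.1% in newborn fibers, where the medians of 19556 protein-coding genes of 1 kb or more were 2.55%, 4.06%, 1.39% and 1.29%. It was above 97.1%, 98.7%, 95.7% and 93.2% of those genes. Elp4 was covered over 3.81%, 5.38%, 1.73% and 0.224%, above 60.1%, 57.0%, 55.5% and 30.0% of them. Its body was thus close to the typical gene in 3 lists, although SIMO and its neighbours lie in it. By its strongest peak Pax6 was less extreme: 73.9%, 95.7%, 71.96% and 69.1% of genes with a peak had a weaker best one.

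**Figure D5:**
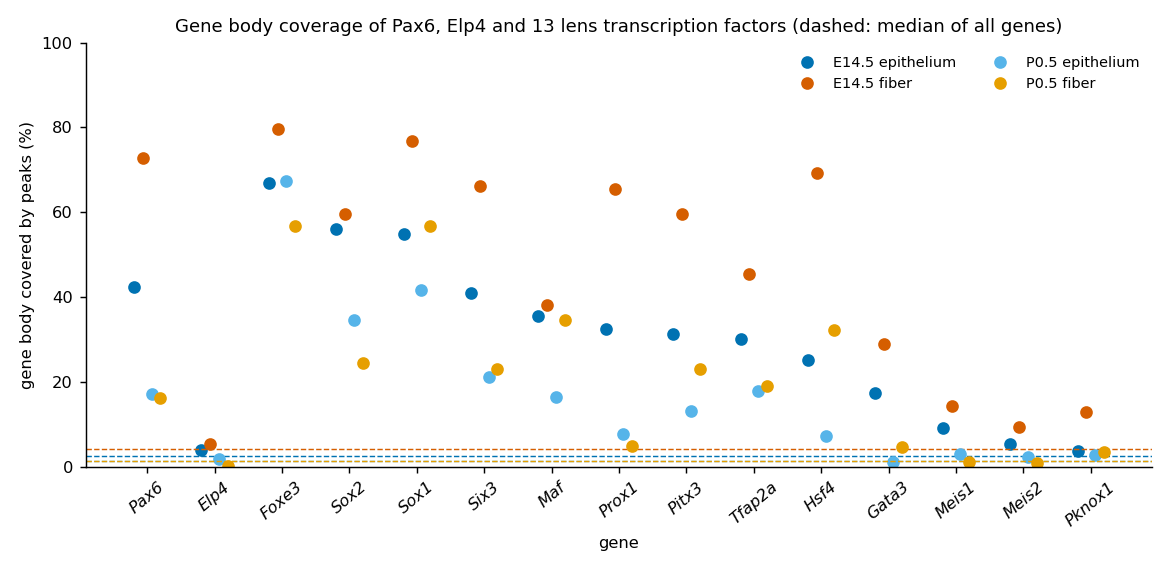
Percent of the gene body covered by peaks in each list for Pax6, Elp4 and 13 transcription factors of the lens, ordered by their value in embryonic epithelium; dashed lines are the medians of all protein-coding genes of 1 kb or more. Pax6 had 72.9% in embryonic fibers and 16.1% to 42.3% in the other lists, and Elp4 lay near the medians in all lists but newborn fibers, where it had 0.224%.

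Of 13 other lens regulators, 3 were covered more than Pax6 in embryonic epithelium, 2 in embryonic fibers, 5 in newborn epithelium and 8 in newborn fibers. Every factor above Pax6 in any list had a shorter gene body, of 1.63 to 19.6 kb against 29.5 kb. Those with longer bodies (Pknox1, Prox1, Meis1 and Meis2, 42.9 to 206 kb) were below it in every list. Coverage was not adjusted for length. Foxe3 and Sox1, a Sox factor of fiber cells, were above Pax6 in all 4, with 79.6% and 76.9% in embryonic fibers and 67.3% and 41.7% in newborn epithelium. Below it, coverage in embryonic fibers was 65.5% for Prox1, a homeodomain factor of fiber elongation, 59.5% for Pitx3, a homeodomain factor, and 69.2% for Hsf4, a heat shock factor of fibers. In newborn epithelium these were 7.76%, 13.04% and 7.30%. Pax6, like all 13 factors compared, was covered more in embryonic fibers than in embryonic epithelium. At P0.5 Pax6 was covered slightly less in fibers than in epithelium, as were 5 of the 13 (Foxe3, Sox2, Prox1, Meis1 and Meis2), while 8 were covered more. Meis1, Meis2 and Pknox1, which encodes Prep1 and whose product binds the ectoderm enhancer, were covered over 1.02%, 0.802% and 3.51% in newborn fibers.

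The 5 genes most like Pax6, by the distance between the logarithms of the ranks of their best peaks in the 4 lists among 13883 genes with a peak in each, were Tmem131, Nudt21, Ogfod1, the chromatin remodeller Chd7 and Nubp2. Their best peaks ranked 2.45% to 4.32% in embryonic epithelium, 0.543% to 0.703% in embryonic fibers, 6.40% to 9.10% in newborn epithelium and 4.64% to 7.65% in newborn fibers. Nudt21 and Ogfod1 share 1 promoter and thus count as 1 pattern. Peaks covered 7.92% to 26.4% of these genes in embryonic fibers, well below Pax6. None was among the 5 most like Pax6 when coverage of the body was compared instead.

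Motifs were searched as letters, on both strands, in 200 bp around each summit. The result depended on the window. The Maf site TGCTGA was in 23 of 67 windows in embryonic epithelium, 34.3% (24.1% to 46.3%) against 21.0% of all peaks, and in 22 of 58 in embryonic fibers, 37.9% (26.6% to 50.8%) against 24.7%. In newborn epithelium it was in 26.2% against 18.8% and in newborn fibers in 13.04% against 18.9%, both with intervals that hold the share of all peaks. In windows of 400 bp both embryonic intervals held it (43.3% against 33.6% in epithelium and 46.6% against 37.4% in fibers), and in windows of 100 bp only the fiber one did (19.0% against 15.4%). The Meis and Prep site TGACAG was in 25.4%, 29.3%, 21.4% and 21.7% against 18.2%, 19.5%, 16.8% and 16.3%, within its intervals. The paired core TTCACGC was in 0 windows of any list, against 0.829% to 1.11% of all peaks. The others, for Tead (GGAATG), Sox (ACAAAG or ACAATG), Pitx (TAATCC), AP-1 (TGANTCA), Ets (GGAAGT), factors of the Gata family (AGATAA) and homeodomains (TAATTA), had the share of all peaks within their intervals in every list at 200 bp. Of the 40 pairs of a motif and a list, 2 thus had that share outside the interval at 200 bp, 3 at 100 bp and 4 at 400 bp. The 3 at 100 bp were Maf in embryonic epithelium (25.4% against 12.1%), Sox in embryonic fibers (24.1% against 14.8%) and Gata in newborn fibers (8.70% against 1.72%). The 4 at 400 bp were AP-1 in embryonic fibers (22.4% against 11.9%) and newborn epithelium (21.4% against 10.3%), and the homeodomain word in embryonic epithelium (11.9% against 5.07%) and newborn fibers (13.04% against 2.51%). These do not include the Maf pairs, and windows of different lists often hold the same site.

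In the sequences shown above, the SIMO core held TGCTGA at base 93 as its complement, within the Six3 region, ACAATG at bases 118 and 167, and GGAATG at base 6 and, as its complement, at base 72. It also held the word AGATAA once, as its complement, at base 131. The Elp4 intron 9 stretch held TGCTGA at base 19 and ACAAAG at base 32, and the intron 8 stretch held TGCTGA as its complement at base 82, just after its summits. None of the 10 motifs was in the minimal ectoderm enhancer or in the intron 7 stretch. The binding sites that RefSeq records in the ectoderm enhancer differ in their letters from the consensus searched, so these words say nothing of the factors there.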

How the data were processed

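ATAC-seq peaks of 4 groups of mouse lens tissue were analysed. Per the labels and the methods, the authors trimmed paired-end reads with Trim Galore 0.4.1, mapped them to mm10 with Bowtie2 2.3.3.1, removed mitochondrial and duplicate reads with SAMtools 1.2 and Picard 2.1.1, and ran MACS2 2.1 with a q cutoff of 0.05 on whole fragments, not on shifted cut sites. The methods describe calls on single samples that were then merged, while the deposited lists are named as pooled. Peak names in the newborn lists give the stage as P1 and the labels as P0.5, and the labels were followed. The deposited fold enrichment is a ratio, the coverage at the summit divided by the background around it. The deposited −log10 p-value and −log10 q-value are MACS2's own, and its deposited score was not used. The lists hold no read counts, so depth is unknown from them. The paper reports read depth and different cell numbers for the groups, and neither was used here.

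Peaks were ranked by fold enrichment within each list and placed on 45756 curated RefSeq transcripts of GRCm38, whose chromosome lengths hold every peak. Promoters were 2 kb on each side of a start site, an overlap was 1 bp or more, and regions were merged at 10 bp. Wilson intervals (95%) cover counting error only. Python 3.11.15, pandas 2.3.3, numpy 2.4.6, pysam 0.24.0 and matplotlib 3.10.9 were used, and the counting steps were tested on simulated data. The members and lists were chosen with earlier results of these data known. Genes named were the members, the other curated genes of the locus, the 5 most like Pax6, 13 lens factors and tissue marker genes. Peaks named singly were the best and the widest of each list in each zone and several on RefSeq elements. Sites outside that rule were named too, among them one upstream of P0 and those in Elp4 introns 8 and 5. All 2 members had entries in the RefSeq promoter table. No column stayed unassigned (0). Some items are not reported here. Other q values, list sizes, locus limits, ranks, merge distances and windows were tried.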

Additional observations from a re-analysis of the deposited data

Results flagged for a closer look

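The difference between tissues changed sign between the stages for 4 measures, and none of these reversals was tested, since each group has 1 list. Coverage of the whole locus, fibers minus epithelium, was 4.04 percentage points in embryos and -2.05 in newborns. The genome as a whole changed sign too, from 0.842 to -0.0656 percentage points. For the Pax6 gene body the difference was 30.6 percentage points at E14.5 and -1.12 at P0.5, and for the Elp4 body it was 1.57 and -1.51. The median gene body also went from 1.503 to -0.101 percentage points, so the sign change is not particular to these genes and Elp4 at E14.5 was near the median. For the rank of the strongest Elp4 peak, which is the promoter shared with Immp1l, it was -0.124 percentage points at E14.5 and 4.402 at P0.5, so fibers ranked slightly stronger first and weaker later. The first of these rank differences does not hold with the strongest 58592 peaks of each list, where the peak stood at 3.23% in embryonic epithelium and 3.73% in embryonic fibers, nor at a q value under 0.001, where it stood at 2.15% and 2.19%. The share of peaks with a q value under 0.001, 80.5% in embryonic fibers and 48.9% in newborn fibers, moves with all 4, and its part in them was not tested.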

How the results depend on the processing

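No paired analysis was possible because there is 1 pooled list per group and no result comes from a test; for the same reason no replicate could be left out. Of 225 values recomputed under alternatives, 156 stayed within the limits set and 69 moved. With equal numbers of peaks the locus held 37 peaks in embryonic epithelium and 27 in embryonic fibers, covering 6.84% and 10.2%; regions of epithelium alone and fibers alone at E14.5 fell to 6 and 5, and regions of E14.5 alone to 5 in epithelium and 21 in fibers. Pax6's best peak then stood at 6.36% in embryonic epithelium, 1.01% in embryonic fibers and 6.78% in newborn fibers, and Elp4's at 3.23%, 3.73% and 7.46%. At a q value under 0.001, coverage was 8.41%, 12.1%, 3.96% and 1.80% in embryonic epithelium, embryonic fibers, newborn epithelium and newborn fibers, Pax6 stood at 4.24%, 0.595%, 7.66% and 12.9%, Elp4 at 2.15%, 2.19%, 2.93% and 14.2%, 1 region was newborn fiber alone and 1 newborn epithelium alone between stages. Flanks of 25 kb gave coverages of 9.84%, 14.6%, 4.91% and 2.57%, flanks of 100 kb 7.33%, 10.8%, 3.80% and 1.74%, and bodies alone 13.6% in embryonic fibers and 3.68% in newborn epithelium. A merge distance of 0 bp gave 1 region for newborn fibers against newborn epithelium and 1 against embryonic fibers. Counting peaks whose summit lay in no peak of the other list, 33 of 42 were newborn epithelium alone and 14 of 23 newborn fiber alone. The shares with a summit in the other list's peaks were 21.4% and 39.1%, against 33.6% over the genome for both. In epithelium 38 of 67 were E14.5 alone and 6 of 42 P0.5 alone, with such shares of 43.3% and 85.7% against 38.1% and 74.7%. In fibers 1 of 23 was P0.5 alone, with 95.7% against 53.3%. Requiring 50% of both peaks, these were 36 of 42, 17 of 23, 50 of 67, 25 of 42 and 22 of 23. For epithelium and fibers alone at E14.5 they were 45 of 67 and 36 of 58. No share over all peaks is given for this rule, so these counts are not read against a background. Merging only the compared lists, an alternative added after the data were seen, gave 29 of 49, 8 of 49 and 35 of 70 for newborn epithelium alone, newborn fibers alone and embryonic epithelium alone against P0.5. These were 59.2%, 16.3% and 50% against 36.7%, 40.2% and 51.6% over the genome. The rank window of the distal peaks compared between lists was set after the data were seen; ranks of 5% to 25%, the window first used, gave 36.2% for embryonic in newborn fibers and 50.05% for newborn epithelium in newborn fibers, with the same 4 counts in the Elp4 body. At a q value under 0.001, also added after the data were seen for these counts, newborn fibers overlapped 3 enhancers and 2 joined stretches. By body coverage 0 of the 5 genes most like Pax6 stayed. In windows of 400 bp the locus minus all peaks was -6.51 points for Sox and -5.24 for Meis in newborn epithelium, 4.49 for Ets in embryonic fibers, -3.20 for Pitx in newborn fibers and -1.67, -1.51, -2.03 and -1.65 for the paired core; in 100 bp it was -0.319 for the homeodomain in newborn fibers. Beyond these values the cause was not tested. Depth cannot be read from the lists, so an absence in a list is only a site not called.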
